A study of Equus caballus with 6 samples.

Results

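The surface layer of adult articular cartilage was set against the fetal tissue layer in which the joint cavity forms. The comparison used 2 of the series' 6 single-colour horse arrays, with 1 array per group: the superficial zone of adult articular cartilage (age 15 years) and the intermediate interzone of the fetal stage (gestational day 40). The other 4 arrays, used here only for context, held the outer interzone and the transient embryonic cartilage of the same fetal stage and the middle and deep zones of the adult cartilage. Members were chosen without regard to their difference: a gene counted as measured when its brightest probe was flagged well above background on both arrays, which held for 2642 of the 13014 genes the array could name. A further 1142 genes were above background on the superficial zone array alone and 2366 on the interzone array alone, and 6819 on neither. In the other 45 genes a probe other than the brightest was above background on 1 or both arrays, and these were left uncompared.

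Per the labels, hindlimbs of the fetal stage and stifle cartilage of 1500 to 2000 µm thickness from the adult stage were cut frozen at 10 µm and stained with cresyl violet, and cells were cut out by laser capture. The superficial zone was the outer 10% of the depth between joint surface and tidemark. RNA was amplified by a global PCR method (SuperAmp), and 250 ng of cDNA was labelled with Cy3 and hybridised for 17 h at 65 °C. The labels report neither genotype nor treatment. How many animals stood behind each array is not given in the sources used here. With 1 array a group there is no replicate check and no p-value for any difference below, and the 3 fetal arrays shared one slide and the 3 adult arrays another, so stage, animal and slide cannot be told apart.

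The interzone is a band of flattened, densely packed cells that marks the site of a future joint and separates cartilage elements before a cavity opens between them. Its cells, many of them marked by the growth factor gene GDF5, contribute to articular cartilage, synovium and ligaments. The superficial zone is the layer of flat chondrocytes that borders the joint cavity after birth and secretes lubricin, the product of PRG4, which keeps the sliding surfaces from wearing. The comparison therefore sets the adult joint surface beside the embryonic layer from which that surface arises.

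The comparison was given 4 marker genes, PRG4, GDF5, CLU and H19, and 3 of them were read by the following 60-base probes, printed 5′ to 3′ from the array's deposited sequences with the start position that the probe name gives. They are shown because the reading of PRG4 and H19 rests on how far their probes overlap. For PRG4, 5 probes start 1 base apart, and the capitals mark the 56 bases common to all of them, so they are repeat readings of 1 stretch of transcript and not independent measurements. Below are the first and last of the 5.
PRG4, start 108: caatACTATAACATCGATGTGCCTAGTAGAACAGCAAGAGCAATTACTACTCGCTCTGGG
PRG4, start 112: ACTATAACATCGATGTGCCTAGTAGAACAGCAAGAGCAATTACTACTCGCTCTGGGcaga
GDF5 was read by a single probe, and H19 by 2 that share no stretch of the transcript.
GDF5, start 1380: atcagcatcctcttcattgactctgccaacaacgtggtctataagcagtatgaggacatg
H19, start 681: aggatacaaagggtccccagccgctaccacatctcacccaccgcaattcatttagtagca
H19, start 1840: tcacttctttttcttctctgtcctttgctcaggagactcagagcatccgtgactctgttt

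Levels are given as log2 of the processed signal minus the array's 75th percentile taken over the 1765 probes detected well above background on every array, so 0 is a bright signal and about -8 the edge of detection. A level describes 1 probe and is compared only with the same probe on another array. Where the lower of 2 levels lies near -8, the size of the fold rests on a signal close to background. Differences are superficial zone minus intermediate interzone, and a gene was called higher or lower when it differed at least 4-fold (2 on the log2 scale). The scanner software's own spot error for a difference had a median of 0.21, and in 808 genes with 2 or more measured probes the SD between probes had a median of 0.26. Neither error covers variation from animal to animal or between dissections and amplifications. The probes of a gene can overlap, as those of PRG4 do, so the SD between them need not reflect independent readings.

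The adult surface and the interzone differed widely in both directions. The median difference of the 2642 measured genes was -0.08, and the differences ran from -12.19 to 11.27, with the central 90% between -4.22 and 3.97 (5th and 95th percentiles). Of the measured genes 430 (16.3%) exceeded the interzone level in the superficial zone by 4-fold or more and 480 (18.2%) fell short of it by as much, together 34.4%, while 1060 lay within 2-fold. Over the measured genes the 2 arrays had a Pearson correlation of 0.55, given as a description across genes, which are not independent. Of the 910 genes past 4-fold, 248 had 2 or more measured probes, and in 229 of these all probes pointed the same way. The other 662 rested on 1 measured probe. Probes of a gene can overlap, as those of PRG4 do, and these genes were picked for a large difference on a reported probe. The agreement between probes is therefore not independent support.

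The share of higher genes among the calls depended on the scaling. It was 47.3% with the scaling used here, 92.1% with the 75th percentile over all probes, 65.8% after quantile normalization, 64.8% with the ribosomal protein genes set to 0 and 40.8% after normexp background correction. These settings moved the median of all measured genes by 2.32, 0.96, 0.59 and -0.49 in that order. A measured difference between -2.32 and 0 therefore changes sign under the first of them, and gene groups are described below beside the median of all genes. Of the medians of the 25 gene lists below, 11 changed sign under it, so a list's median between -2.32 and 0 is read only against that of all genes.

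**Figure D1:**
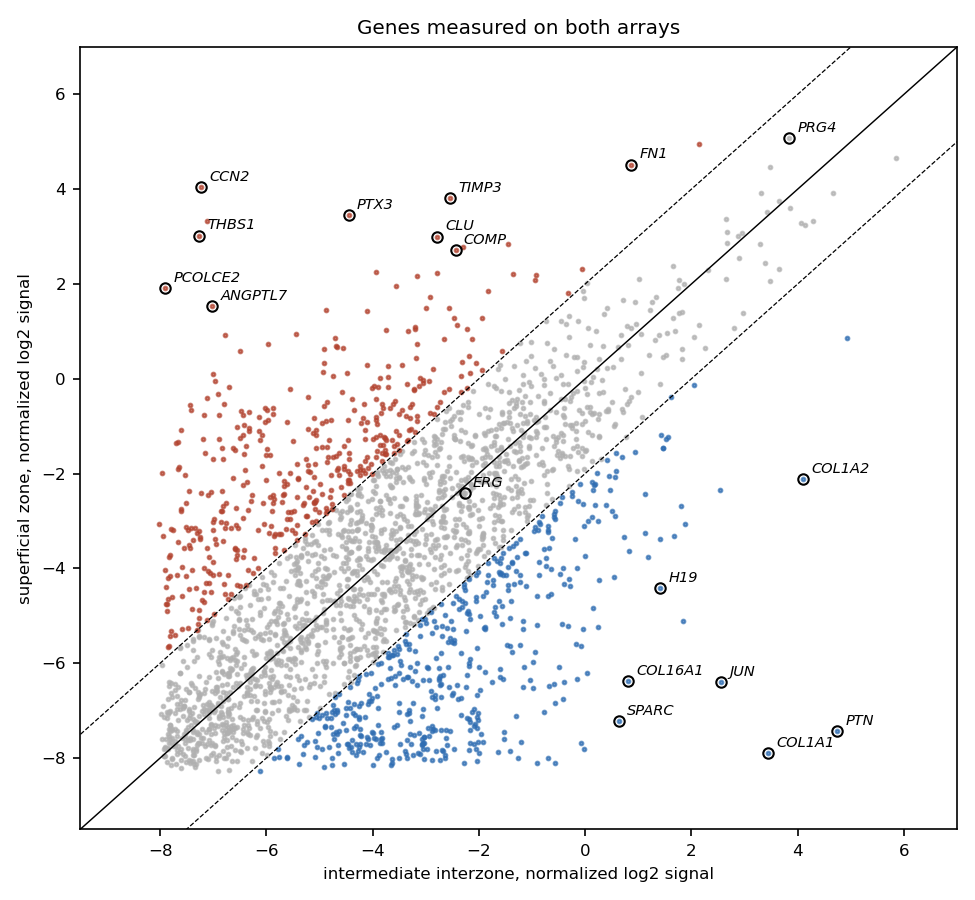
Normalized log2 signal of the 2642 genes measured on both arrays, intermediate interzone on the horizontal axis and superficial zone on the vertical axis, 1 point a gene; the solid line marks equal levels and the dashed lines 4-fold. PRG4 and ERG lie between the dashed lines, CCN2 and THBS1 lie far above them and PTN and COL1A1 far below.

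Detection was uneven. The interzone array had 36.94% of its 43603 probes well above background and the superficial zone array 26.43%. Accordingly, 2366 genes (18.2% of those named) were seen on the interzone array alone and 1142 (8.78%) on the superficial zone array alone. For such genes the text gives a lower bound, "at least N-fold", set against the higher of the dim probe's own signal and the lowest signal above background on that array. The bound reached 4-fold for 1807 genes in favour of the interzone and 615 in favour of the superficial zone. Among 16 genes used in every cell type, 4 (SDHA, HPRT1, PPIA and YWHAZ) were also seen on the interzone array alone, and 11 were measured with a median of -0.75. The part of this in the genes seen on the interzone alone was not tested. In tissue pieces like these, fewer cells of a type and less RNA per cell cannot be told apart.

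The 4 markers gave 4 different patterns. PRG4, which encodes lubricin, stood at 5.07 in the superficial zone and 3.84 in the intermediate interzone. Elsewhere it was at 3.45 in the outer interzone, -5.87 in transient cartilage, -3.32 in the middle zone and 0.06 in the deep zone. PRG4 was thus bright at both joint surfaces, with the superficial zone above the interzone by 1.23 (2.35-fold, spot error 0.20), and the 5 overlapping probes gave 1.16 to 1.29. This difference lay inside the range of most genes, at the 74.5th percentile. PRG4 stayed higher in the superficial zone under every scaling tried, by 1.14 to 3.55.

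GDF5, a growth factor of the BMP family and the classical interzone marker, was above background only on the fetal interzone arrays, at -1.90 in the intermediate and -3.38 in the outer layer. In transient cartilage and in the 3 adult zones its probe was not well above background. The superficial zone was at least 83.1-fold lower than the intermediate interzone. CLU, a secreted chaperone abundant in mature cartilage, showed the opposite pattern, with 3.00, 3.59 and 5.05 in the superficial, middle and deep zones and -2.79, -3.64 and -3.55 in the intermediate interzone, outer interzone and transient cartilage. All adult levels lay above all fetal levels, and the superficial zone exceeded the interzone by 5.79 (55.4-fold). H19, an imprinted non-coding RNA of fetal growth, was at 1.41, 0.93 and 1.70 in the 3 fetal regions and at -4.42, -3.78 and -5.89 in the superficial, middle and deep zones. It was 5.82 lower on the log2 scale in the superficial zone than in the interzone (a difference of -5.82, 56.5-fold), and its other probe was above background on the interzone array and not on the superficial one.

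**Figure D2:**
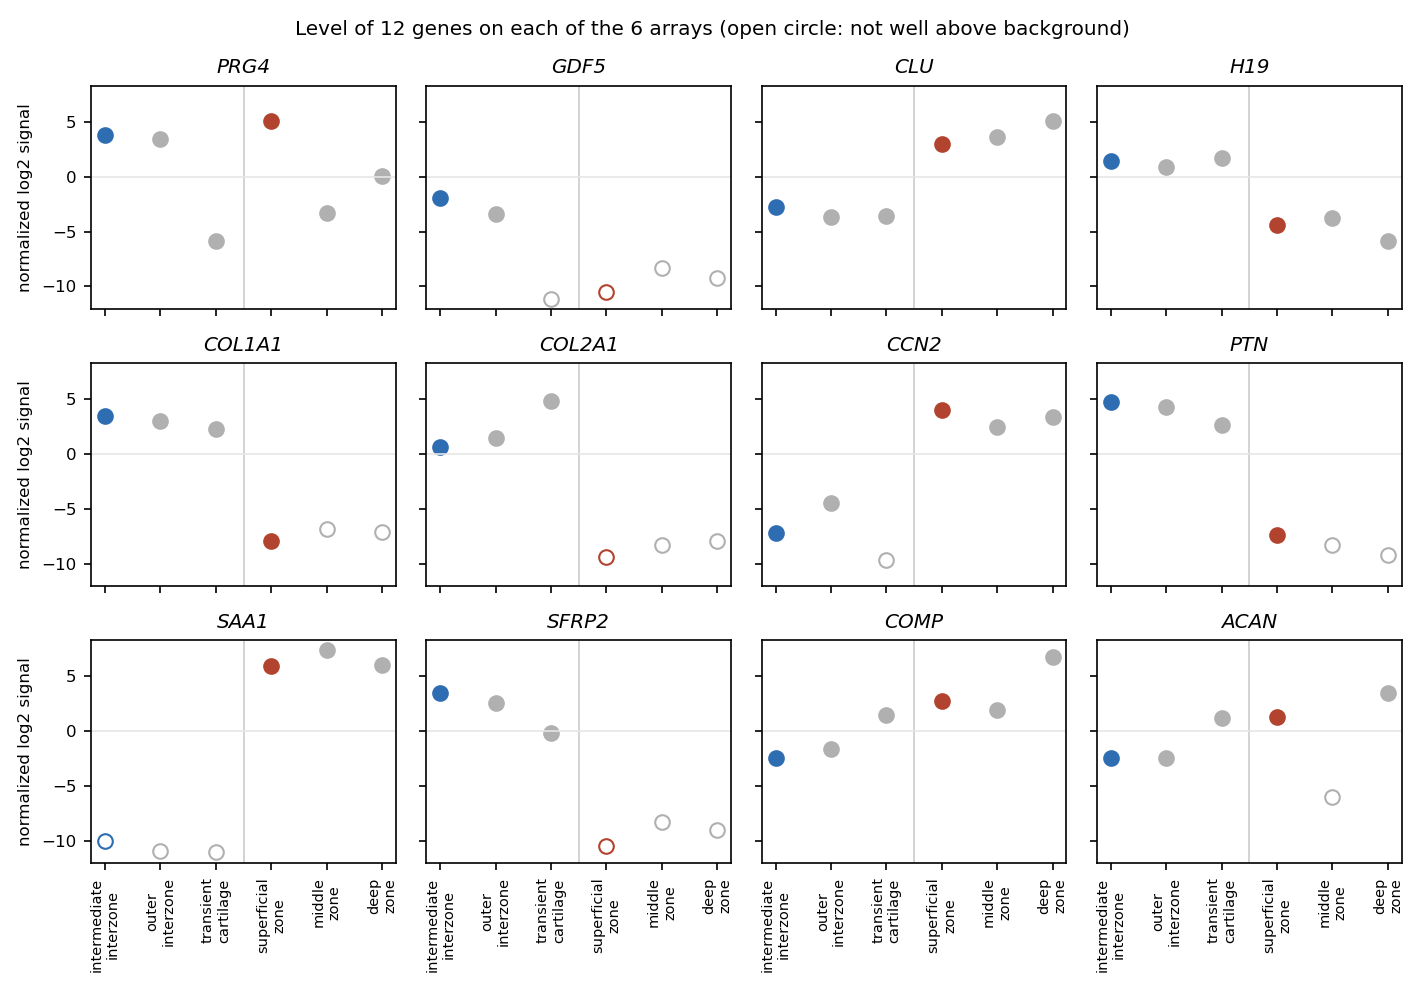
Normalized log2 signal of 12 genes on each of the 6 arrays, 1 array a region, with the intermediate interzone in blue, the superficial zone in red and the other regions in grey; open circles are not well above background. PRG4 is bright in blue and red and lower in transient cartilage and the deeper adult zones, while CLU, H19, PTN and SFRP2 separate fetal from adult arrays.

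Genes of the superficial zone and of boundary lubrication were mostly higher in the adult surface. Of 17 such genes on the array 7 were measured, with a median difference of 3.97 against -0.08 for all genes. Of these, 4 passed 4-fold upwards and 0 downwards, against 16.3% and 18.2% of all measured genes. The 7 include the given markers PRG4 and CLU. CLU, 1 of the 4, stood higher still in the middle and deep zones, so it is not particular to the superficial zone. The hyaluronan receptor CD44 stood at 0.64 in the superficial zone and -4.56 in the interzone (36.8-fold), the adhesion receptor VCAM1 at 1.02 and -3.74 (27-fold), and the guidance ligand SEMA3A at 0.27 and -3.71 (15.7-fold). ABI3BP, a matrix protein, was 3.73-fold higher with 3 probes between 1.90 and 2.12. ERG, a transcription factor of joint-forming and articular chondrocytes, was close to level, with -2.42 in the superficial zone and -2.27 in the interzone. Its 2 probes gave -0.15 and 0.20, so no direction can be given. A further 5 genes (29.4%, against 8.78% of all genes) were seen on the superficial array alone. They were the protein C receptor PROCR, at least 779-fold higher, the integrin-like ITGBL1 (at least 25.9-fold), the hyaluronan-binding TNFAIP6 (at least 10.1-fold), the transcription factor CREB5 (at least 7.52-fold) and the hyaluronan synthase HAS2 (at least 2.88-fold). TPPP3 and THY1, a microtubule-associated protein and a surface protein of fibroblasts, were seen on the interzone array alone (11.8%, against 18.2% of all genes), at least 2.72-fold and 2.74-fold lower in the adult.

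Genes of joint formation were mostly seen on the interzone array. Of 25 on the array, 13 were seen there alone (52%, against 18.2% of all genes), 4 on the superficial array alone (16%, against 8.78%) and 3 on both, and those 3 had a median of -2.61. The WNT-binding protein SFRP2 was at 3.44 and 2.58 in the intermediate and outer interzone, at -0.22 in transient cartilage and was not above background in any adult zone, which put the superficial zone at least 3379-fold lower. The transcription factor OSR2 and the secreted EGFL6 were at least 337-fold and 335-fold lower, and WNT11, SEMA3B, FGF10 and BARX2 at least 91- to 139-fold. CALB2, EBF2, TRPS1, OSR1 and BARX1 had bounds from 9.94-fold to 68.3-fold. Among the 3 measured genes, the growth factor FGF18 (-4.55, 23.4-fold) and the heparan sulfatase SULF1 (-2.61, 6.12-fold) were lower in the superficial zone, and ENPP2, which makes lysophosphatidic acid, differed by -1.21.

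Not every gene of joint formation was a fetal gene here. GDF6, a close relative of GDF5, was at -0.39 in the superficial zone and not above background on any of the other 5 arrays, at least 198-fold higher than in the interzone. PTHLH, which encodes the hormone that holds chondrocytes in an immature state, was at -1.50 in the superficial zone, at 0.03 in the middle zone and not above background in the intermediate interzone, a bound of at least 91.7-fold. CHRD, a BMP antagonist, and TGFBR2, the type II TGF-beta receptor, were near the edge of detection, with bounds of 1.22-fold and 1.4-fold.

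**Figure D3:**
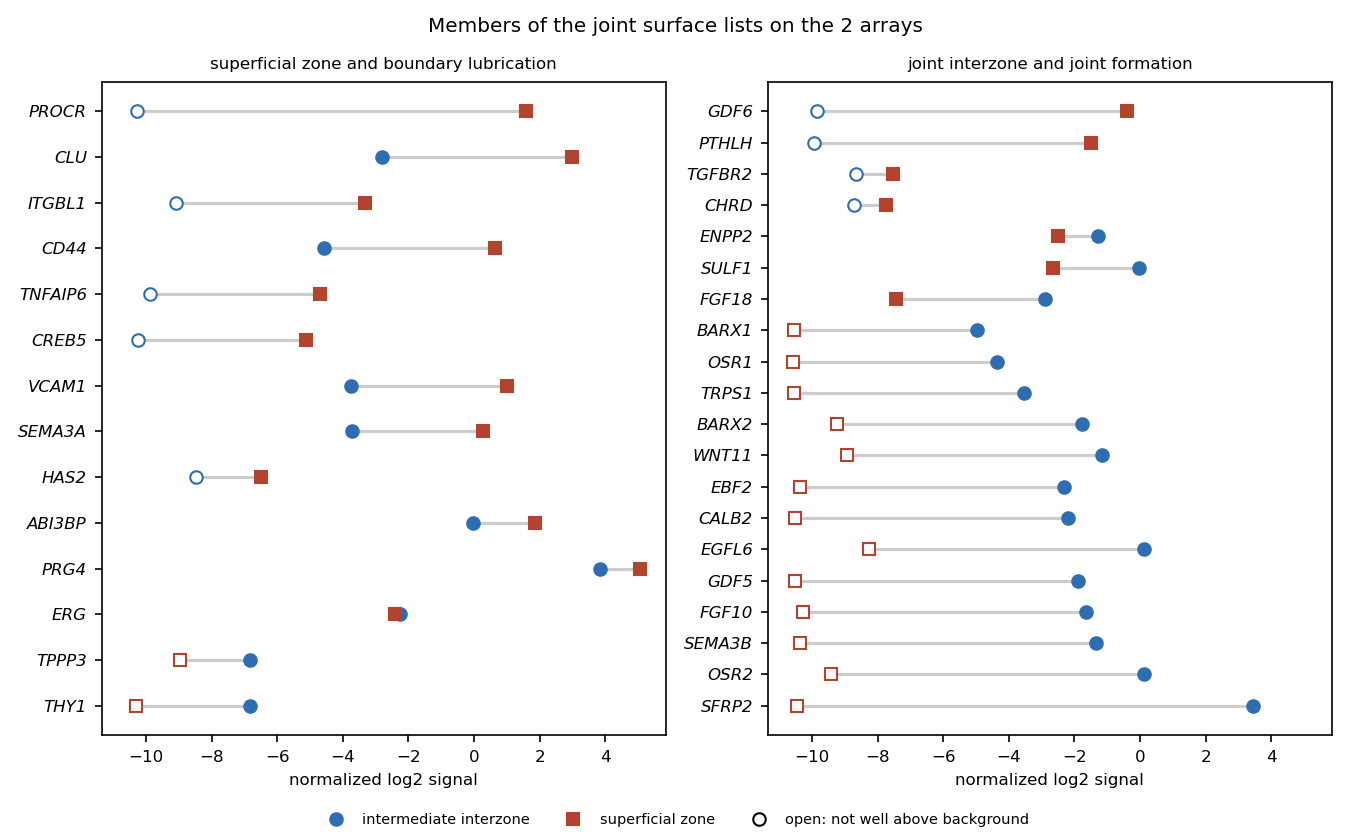
Normalized log2 signal on the superficial zone array (red squares) and the intermediate interzone array (blue circles) for the detected members of the lists of superficial zone genes (left) and joint formation genes (right); open symbols are not well above background. In the left panel most red squares lie to the right, in the right panel most blue circles do, with GDF6 and PTHLH as exceptions at the top.

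The cartilage matrix genes split by molecule. Of 28 on the array, 9 were measured with a median of 1.09, of which 4 were higher and 1 lower (against 16.3% and 18.2% of all measured genes). Another 8 were seen on the interzone array alone and 2 on the superficial array alone (28.6% and 7.14%, against 18.2% and 8.78% of all genes). The aggregating proteoglycan ACAN stood at 1.29 in the superficial zone and -2.46 in the interzone (13.4-fold), and a second probe gave a difference of 6.21. COMP, a pentameric matrix glycoprotein, was at 2.71 and -2.44 (35.5-fold), and the link protein HAPLN1 was seen in the superficial zone at 0.36 and not in the interzone (at least 334-fold). The secreted chondrocyte protein CYTL1 and the WNT antagonist FRZB were 12-fold and 29.3-fold higher. SOX9, the transcription factor that specifies chondrocytes, differed by 0.97, under 2-fold.

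Collagens II and IX went against ACAN, COMP and HAPLN1. COL2A1, the main cartilage collagen, was at 0.65 and 1.45 in the intermediate and outer interzone, at 4.85 in transient cartilage and was not above background in the superficial, middle or deep zone. Of its 6 probes 5 were above background on the interzone array and 0 on the superficial one, with a bound of at least 488-fold. Those 5 start 1 base apart and are repeat readings of 1 stretch, and the remaining probe was above background on neither array. The collagen IX chains COL9A2 and COL9A3 were at least 1981-fold and 634-fold lower in the superficial zone and COL9A1 at least 8.44-fold. The small secreted chondrocyte proteins MIA and LECT1 were at least 45.3-fold and 13.2-fold lower. COL11A1, a minor fibril collagen, was nearly level at -0.81 and -0.93, with 3 probes between -1.47 and 0.40, and the fibrillar collagen COL27A1 was 2.13-fold higher (1.09). The labels call the adult sample cartilage, and of 10 chondrocyte markers 4 were present on its array, namely ACAN, COMP, HAPLN1 and SOX9. COL2A1, COL9A1 and MATN1 were above background in the interzone alone, and MATN3, COL11A2 and CHAD on neither array.

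Other collagens were also lower in the adult surface. Of 20 fibrillar, type VI and other collagens on the array 8 were measured, with a median of -4.28, 6 lower and 0 higher (against 18.2% and 16.3% of all measured genes). A further 7 were seen on the interzone array alone and 1 on the superficial array alone (35% and 5%, against 18.2% and 8.78% of all genes). COL1A1, a chain of the fibrous collagen I of bone and tendon, was at 3.44, 2.98 and 2.26 in the intermediate interzone, outer interzone and transient cartilage and at -7.90 in the superficial zone. The superficial level lay just above the edge of detection, and the difference was -11.35 (2602-fold) on 1 of its 2 probes, the other being at background on both arrays. The partner chain COL1A2 was lower by 75.4-fold (-6.24; a second probe gave -11.99). COL12A1 and COL16A1, which decorate fibrils, were lower by 22.8-fold (5 probes, -4.81 to -4.35) and 144-fold. COL6A1, COL4A2 and COL8A2 were seen on the interzone array alone, at least 102-fold, 44.5-fold and 57.7-fold lower in the superficial zone.

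Small leucine-rich proteoglycans, which bind collagen fibrils and growth factors, divided by member. Of 11 on the array 8 were measured (median 1.40), 3 higher and 2 lower (against 16.3% and 18.2% of all measured genes). Decorin (DCN) was at 0.43 in the superficial zone and -3.18 in the interzone (12.3-fold higher), PRELP was 6.52-fold and ECM2 6.01-fold higher, and FMOD was 3.49-fold higher on its reported probe. Lumican (LUM) was at -2.43 and 1.12 (11.7-fold lower), and its 6 probes ranged from -3.55 to -1.86. Biglycan (BGN) was 5.53-fold lower and asporin (ASPN) was seen on the interzone array alone, at least 271-fold. Osteoglycin (OGN) was level, at -0.06 and 0.11, with a sign that changed under several scalings. Decorin and lumican, related proteins of the same fibrils, were thus on opposite sides, while the median of the list lay above that of all genes.

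Secreted and matrix-associated genes were among the largest measured differences, together with the enzyme gene SOD2 and the transcription factor gene JUN. CCN2, the connective tissue growth factor gene, was at 4.04, 2.45 and 3.36 in the superficial, middle and deep zones, at -7.23 in the intermediate interzone and at -4.51 in the outer interzone, and was not above background in transient cartilage. The superficial zone was 2467-fold higher than the interzone (11.27, with 5 probes between 11.25 and 11.83). THBS1, a thrombospondin that activates latent TGF-beta, was 1242-fold higher (3.02 against -7.26), and PCOLCE2, an enhancer of collagen propeptide cleavage, 908-fold (1.92 against -7.91). The interzone level of PCOLCE2 lay at the edge of detection and those of CCN2 and THBS1 near it, so the size of these folds is uncertain. ANGPTL7, a secreted angiopoietin-like protein, was 377-fold higher, and PTX3, a pattern-recognition protein that also stabilises hyaluronan, 240-fold. SDC4, a cell-surface proteoglycan, was seen in the superficial zone and not in the interzone, at least 1684-fold.

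On the interzone side, PTN, a heparin-binding growth factor of embryonic tissues, was at 4.75, 4.24 and 2.64 in the intermediate interzone, outer interzone and transient cartilage. On the adult arrays it was at -7.43 in the superficial zone, near the edge of detection, and not above background in the middle and deep zones. The superficial zone differed from the interzone by -12.19 (4663-fold) with 3 measured probes between -12.67 and -12.19. SPARC, a collagen-binding glycoprotein of growing matrix, was 231-fold lower in the superficial zone (4 probes, -8.37 to -7.64), and JUN, an AP-1 transcription factor subunit, 495-fold (-6.40 against 2.55). TGFBI, an adhesion protein induced by TGF-beta, was at 2.92 in the interzone and not above background in any adult zone (at least 2356-fold). IL11RA, the interleukin 11 receptor, was 124-fold lower, and its ligand gene IL11 22.8-fold lower.

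The matrix glycoproteins as a list were balanced, with 22 of 41 measured and a median of -0.33. Of these 6 were higher and 6 lower (against 16.3% and 18.2% of all measured genes). However, 14 were seen on the interzone array alone and 2 on the superficial array alone (34.1% and 4.88%, against 18.2% and 8.78% of all genes). Fibronectin (FN1) was at 4.52 in the superficial zone and 0.87 in the interzone, 12.5-fold higher, and all 9 probes gave 3.21 to 4.43. The syndecan SDC3 was 80.1-fold higher and the thrombospondin THBS2 11.9-fold. Lower in the superficial zone were the microfibril protein MFAP2 (72.6-fold), the embryonic proteoglycan versican (VCAN, 28.5-fold) and tenascin X (TNXB, 22.4-fold). The elastic fibre protein FBLN5 and the collagen-modifying CTHRC1 were seen in the interzone and not in the superficial zone, at least 309-fold and 173-fold.

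Matrix-degrading enzymes did not share a direction. Of 28 metalloproteinases, cathepsins and inhibitors on the array 10 were measured (median -0.02), 3 higher and 2 lower. The aggrecanase ADAMTS5 was at 0.73 in the superficial zone and -5.97 in the interzone (104-fold higher), and the inhibitor TIMP3 at 3.81 and -2.55 (82.1-fold, 5 probes between 6.20 and 6.36). The collagenase MMP1 (at least 731-fold), the stromelysin MMP3 (at least 772-fold) and the cathepsin CTSK (at least 426-fold) were seen on the superficial array alone. In contrast, the gelatinase MMP2 was at -7.11 and -1.30 (56.1-fold lower), and cathepsin B (CTSB) was 14.9-fold lower on all 5 probes (-4.19 to -3.28). MMP16, ADAMTS6, TIMP1 and MMP15 were seen on the interzone array alone, with log2 bounds of -4.83, -4.83, -3.30 and -1.93.

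Genes of the acute phase and of innate defence had the largest share of members seen in the adult surface alone among the 25 lists. Of 40 on the array, 14 were above background on the superficial array only and 1 on the interzone array only, against 8.78% and 18.2% of all genes. Another 12 were measured, with a median of 0.67, 4 higher and 1 lower (against 16.3% and 18.2% of all measured genes). Under normexp the median of those measured was -0.67, below that of all genes by 0.11 (a difference of -0.11). Serum amyloid A (SAA1), an acute-phase protein, was at 5.97, 7.36 and 5.99 in the superficial, middle and deep zones and not above background on any fetal array. Its bound was at least 16335-fold, and because SAA genes are near-identical copies the signal cannot be assigned to 1 of them. Complement factor B (CFB) was at least 2547-fold, the defensin DEFB4B at least 2263-fold and the chemokine CCL20 at least 1003-fold higher.

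SOD2, the mitochondrial superoxide dismutase induced by inflammatory signals, was at 3.33, -0.53 and 2.87 in the superficial, middle and deep zones and at -7.12, -7.47 and -8.18 on the fetal arrays. The superficial zone exceeded the interzone by 10.44 (1393-fold), and all 17 probes were above background in the superficial zone against 1 in the interzone. Several of these probes overlap, so they are not independent readings. Complement C1R was 25.1-fold higher (5 probes, 4.54 to 4.92), and LCN2, an iron-sequestering antibacterial protein, 22.8-fold. DEFB4B and CCL20 were not above background in the middle and deep zones, whereas SAA1 and CFB were bright there. The middle and deep zone arrays had 8.396% and 10.85% of probes well above background, against 26.43% on the superficial zone array. Most probes were thus not seen there, and no difference in distribution within the adult cartilage is read from this.

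Among BMP and TGF-beta ligands, 5 of 14 on the array were measured, with a median of -2.61. Of these 1 was higher and 3 lower (against 16.3% and 18.2% of all measured genes). The median is that of BMP2, whose probes disagreed, and became -1.25 with the mean over probes, -1.17 with the brightest probe over 6 arrays and -1.22 under normexp. BMP4 was at -1.42 and -3.30 in the intermediate and outer interzone, at -5.04 in the superficial zone and was not above background on the other 3 arrays. It was 12.3-fold lower in the superficial zone, and its 9 probes agreed between -3.94 and -3.56. GDF7, another GDF5 relative, was 9.75-fold lower. BMP2 was 6.09-fold lower on its reported probe, but a second probe gave 0.10. INHBA, which forms activin A, was 41.9-fold higher (0.70 against -4.69, 4 probes between 5.39 and 5.80). BMP6 was seen at -0.72 in the superficial zone and on no other array (at least 157-fold higher), and BMP7 at least 2.27-fold higher. BMP5 and BMP1 were seen in the interzone and not in the superficial zone, at least 17-fold and 4.1-fold lower.

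Receptors, inhibitors and targets of these ligands had a median of -0.07 over 9 measured genes of 33. Of these 1 was higher and 3 lower (against 16.3% and 18.2% of all measured genes). CCN2, itself a TGF-beta target, was the 1 higher gene, and ID3, a direct BMP target, was among 3 lower genes (-8.10 against -2.28, 56.7-fold). The superficial level of ID3 lay at the edge of detection. The activin antagonist follistatin (FST) was seen in the interzone and not in the superficial zone, at least 72.4-fold. In the FGF, PDGF and hedgehog list 12 of 36 were measured (median 1.42, or 0.46 with the mean over probes). On their reported probes 2 were higher and 4 lower (against 16.3% and 18.2% of all measured genes). FGFR3 was 7.76-fold higher in the superficial zone, PDGFC 9.31-fold lower and the FGF feedback inhibitor SPRY1 48.9-fold lower. The 2 probes of FGFR1 pointed in opposite directions (3.49 and -2.57), so it has no direction here, although its reported probe is 1 of the 2 counted as higher. Of 42 WNT genes 6 were measured, with a median of -0.06, and FRZB was the 1 past 4-fold. A further 11 were seen on the interzone array alone, SFRP2 and WNT11 among them, and 5 on the superficial array alone. These are 26.2% and 11.9%, against 18.2% and 8.78% of all genes.

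The insulin-like growth factor axis and imprinted growth genes were more often seen in the interzone alone. Of 30 on the array 12 were seen on the interzone array alone and 3 on the superficial array alone. These are 40% and 10%, against 18.2% and 8.78% of all genes. Another 8 were measured with a median of 0.35, 2 higher and 2 lower (against 16.3% and 18.2% of all measured genes). IGF2, the fetal growth factor that lies beside H19 in an imprinted cluster, was at 1.86, 1.35 and 1.20 in the intermediate interzone, outer interzone and transient cartilage. It was not above background in any adult zone, at least 1130-fold lower in the superficial zone than in the interzone. The growth-restraining imprinted gene CDKN1C (at least 171-fold), the imprinted zinc-finger gene PEG3 (at least 164-fold) and the IGF-binding protein IGFBP2 (at least 91.3-fold) had the same pattern in these 2 arrays. MEST, also imprinted, was 5.61-fold lower (0.14 in the interzone, -2.35 in the superficial zone).

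Receptors of the axis went both ways. IGF1R was at -1.05 in the superficial zone and -5.22 in the interzone (18-fold higher), and the insulin receptor INSR was seen in the superficial zone and not in the interzone (at least 27.1-fold). IGF2R, which clears IGF2 from the cell surface, was seen in the interzone and not in the superficial zone (at least 9.11-fold lower). IGFBP7 was 7.92-fold higher with 5 probes between 2.96 and 3.12. IGFBP5 was 1.64-fold higher on its reported probe, but its 6 probes ranged from 0.72 to 4.38. IGFBP3 was level (-0.11), and IGF1 was not above background on either array.

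Cell cycle and DNA replication genes had 15 of 69 measured, with a median of -2.06, 8 lower and 1 higher (against 18.2% and 16.3% of all measured genes). On the interzone array alone 32 were seen (46.4%, against 18.2% of all genes) and on the superficial array alone 0 (against 8.78%). The median turned to 0.26 when arrays were scaled on all probes, though it stayed below that of all genes under every setting. The replication clamp PCNA was at -6.40 in the superficial zone and -1.75 in the interzone (25.1-fold lower), and the cyclin CCND2 was 54.5-fold lower. The helicase subunits MCM6 and MCM4 and the tubulin regulator STMN1 were seen in the interzone and not in the superficial zone, at least 318-fold, 103-fold and 137-fold. The exception was GMNN, an inhibitor of replication licensing, 8.6-fold higher in the superficial zone on 1 of its 2 probes.

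Limb and joint transcription factors had 18 of 43 members seen on the interzone array alone and 4 on the superficial array alone (41.9% and 9.3%, against 18.2% and 8.78% of all genes). HOXA10, a limb patterning gene, was at 0.49, 0.61 and -1.26 on the fetal arrays and not above background in the adult zones (at least 436-fold lower in the superficial zone). PRRX1 and HOXA9 were at least 250-fold and 123-fold lower. Measured members went both ways, with PRRX2 (-4.14) and TBX15 (-2.63, 5 probes) lower and the forkhead genes FOXC2 (5.61) and FOXP1 (3.95) higher. Among stress and immediate-early genes, 24 of 53 were measured, with a median of -0.02. Of these 6 were higher and 4 lower (against 16.3% and 18.2% of all measured genes). MYC was 15.7-fold higher, the catalase gene CAT 10.9-fold and KLF4 8.47-fold, whereas JUN and the stress factor ATF4 (50.4-fold) were lower.

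**Figure D4:**
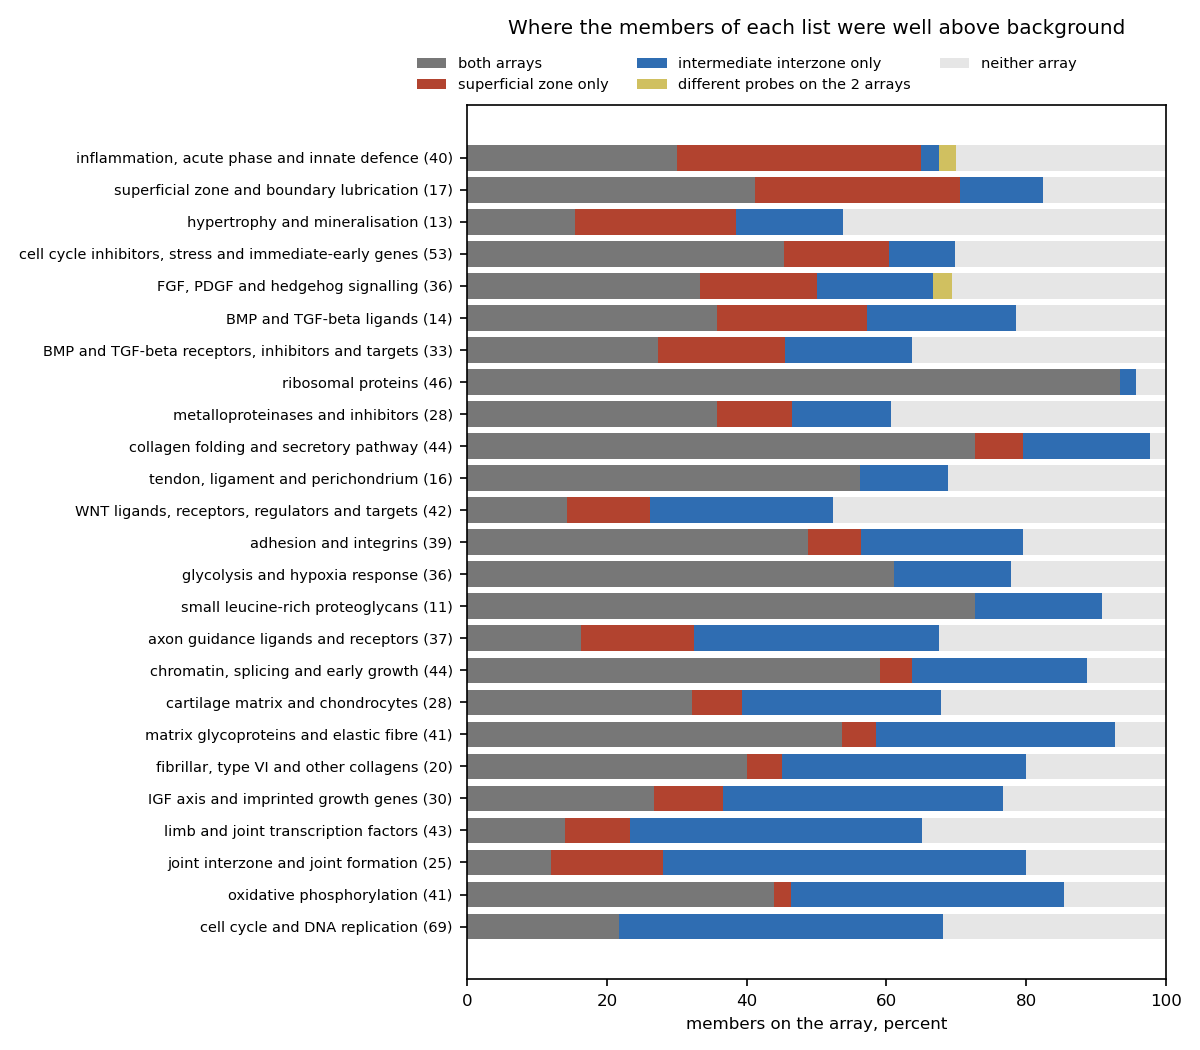
Percent of each gene list's members on the array, by where they were well above background. Dark grey is both arrays, red the superficial zone array only, blue the intermediate interzone array only and light grey neither. Yellow, labelled different probes on the 2 arrays, holds genes left uncompared because a probe other than the brightest was above background. The number of members on the array stands after each name. Acute phase and defence genes have the longest red bar (35%) and joint formation genes the longest blue bar (52%), and cell cycle genes have a blue bar of 46.4% with no red.

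Few housekeeping genes were higher in the superficial zone. Of 46 ribosomal protein genes 43 were measured, with a median of -0.59, 7 lower (against 18.2% of all genes) and 0 higher. Their median was 1.72 when arrays were scaled on all probes, and under normexp it lay 0.04 above that of all genes. Glycolysis and hypoxia genes (22 of 36 measured, median -1.12) and oxidative phosphorylation genes (18 of 41 measured, median -1.15) lay below the median of all genes. Of the latter 16 (39%, against 18.2% of all genes) were seen on the interzone array alone. ATP5A1 and ATP5F1A, an older and a newer symbol of 1 gene, count as 2 of the latter list's measured members. The medians of the 2 lists changed to 1.20 and 1.16 when arrays were scaled on all probes, while both stayed below that of all genes. NDUFB1, a complex I subunit, was 48.5-fold lower on 5 probes, LDHA 5.14-fold lower and the glucose transporter SLC2A1 3.2-fold higher.

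The secretory pathway stood above the median of all genes, with 32 of 44 measured, a median of 0.85, 12 higher and 2 lower (against 16.3% and 18.2% of all measured genes). The endoplasmic reticulum proteins SSR1 and MIA3, which serve protein translocation and collagen export, were 81-fold and 40.7-fold higher in the superficial zone, and XBP1, a factor of the unfolded protein response, was at least 90.4-fold higher. Enzymes that modify collagen chains went both ways. PLOD1 and P4HA1, a lysyl and a prolyl hydroxylase subunit, were seen in the interzone and not in the superficial zone, P4HA1 at least 58-fold lower in the latter, and the partner protein CRTAP was 5.87-fold lower. The prolyl hydroxylase subunit P4HA3 was seen in the superficial zone alone (at least 3.9-fold), and the lysyl hydroxylases PLOD3 and PLOD2, picked after their values were seen, differed by 2.36 and -0.04.

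Some bright genes were close to level, as they were chosen for lying nearest the median among the 100 brightest. Of these, the proteasome subunit PSMD7 differed by -0.02. The splicing factor HNRNPH1 was at 0.72 and 0.81, the chaperone PDIA3 at 0.21 and 0.22, and SSRP1, a histone chaperone subunit, differed by -0.18 with 5 probes between -0.18 and -0.11.

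**Figure D5:**
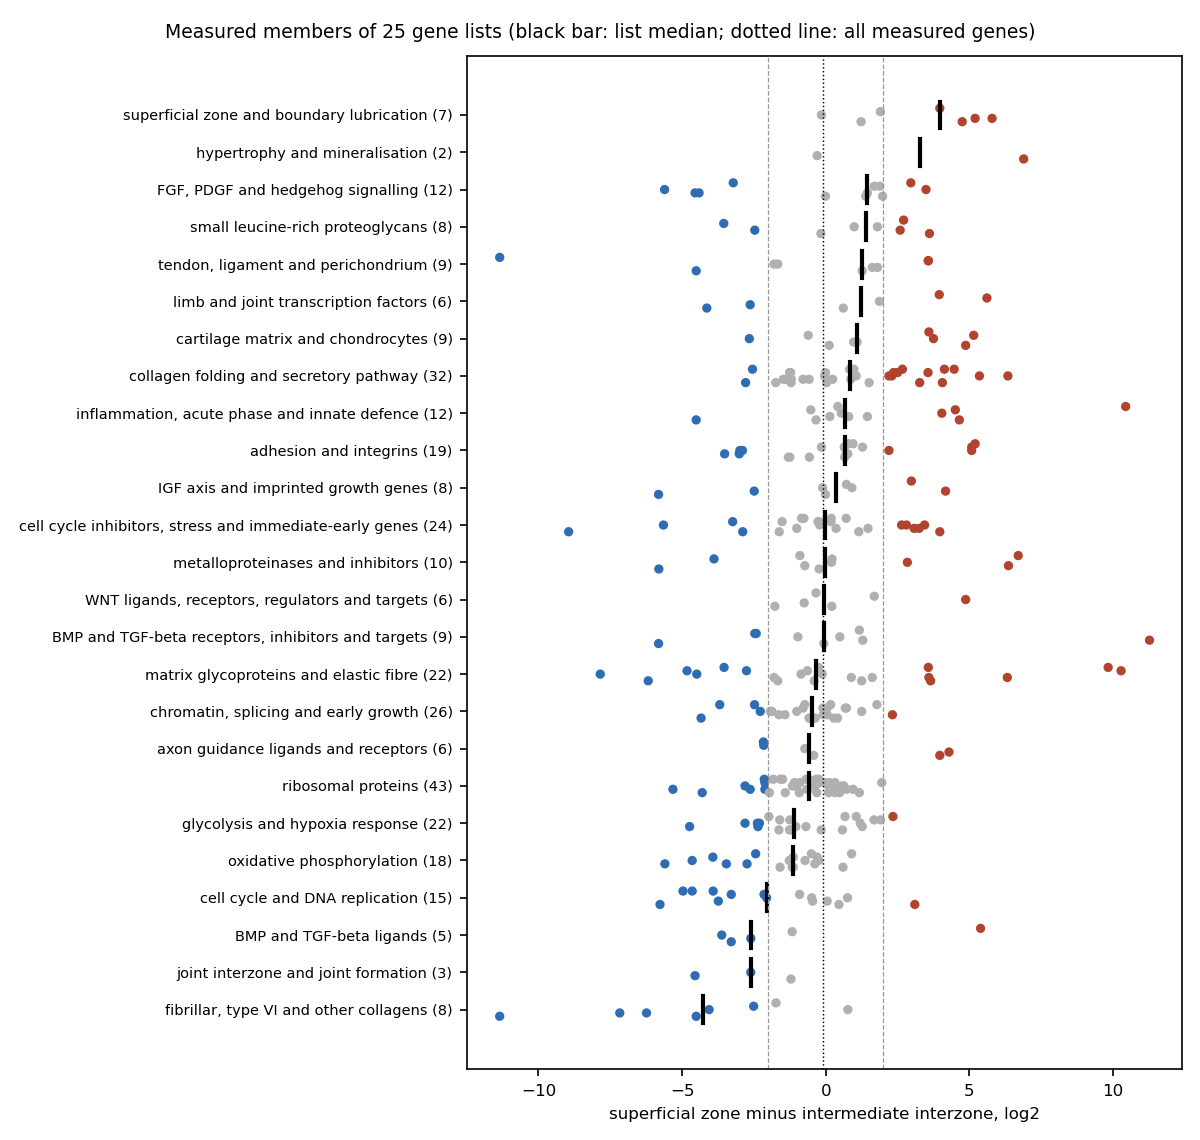
Superficial zone minus intermediate interzone (log2) for every measured member of 25 gene lists, 1 point a gene, red at least 4-fold higher and blue at least 4-fold lower; the black bar is the list's median, the dotted line the median of all measured genes, and the number of measured members stands after each name. The superficial zone genes have a median of 3.97 and the fibrillar and other collagens of -4.28, while most lists spread to both sides.

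Because each surface layer has deeper tissue of its own stage, the interzone was also set against transient cartilage and the superficial zone against the deep zone, comparisons that have no array in common. Of 4969 genes with a value, 1234 (24.8%) passed 4-fold in favour of the intermediate interzone over transient cartilage. For the superficial over the deep zone 1557 of 3748 (41.5%) did so. Of these 134 were measured on both arrays and the rest were bounds, the deep zone array having 10.85% of probes above background. Genes seen on the deeper tissue's array alone were given no value. Both shares therefore lean towards the surface layer and are not comparable with the shares given above. The lists shared 199 genes, which is 16.1% of the interzone list and 12.8% of the superficial list. Among 2569 genes with a value in both comparisons, 47.6% of the genes higher in the interzone were also higher in the superficial zone, against 43.5% of all, so the sharing was near the background.

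PRG4 was measured in both comparisons, 836-fold higher in the interzone than in transient cartilage and 32.2-fold above the deep zone in the superficial one. THBS2 was 5.14-fold and 12.5-fold higher in the same comparisons. Decorin was at least 55.5-fold higher in the interzone than in transient cartilage and 27-fold higher in the superficial zone than the deep one. INHBA was 6.72-fold and at least 189-fold higher, TGFB2 14.3-fold and at least 38.4-fold, SULF1 9.82-fold and at least 18.6-fold, and CD44 at least 21.4-fold and 182-fold. Between the 2 surfaces themselves the 199 genes had a median difference of 0.62, with 54 (27.1%) at least 4-fold higher in the superficial zone and 21 (10.6%) lower, against -0.08, 16.3% and 18.2% for all measured genes. The 199 were chosen in part by a high signal on these same 2 arrays, so these values are a description only.

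Markers of other tissues varied in how many were seen, against 38.8% of all genes seen on the interzone array and 29.3% on the superficial array. Of 11 endothelial genes 7 were above background on neither array, PECAM1 among them, and 3 were measured with levels that differed by -2.09 to -0.15. Epithelial genes were absent from both arrays in 7 of 8 cases, and Schwann cell and neuron genes in 9 of 11. Of 4 red cell genes HBB was seen in the interzone and not in the superficial zone. Of 14 skeletal muscle genes 7 were seen in the interzone and 5 in the superficial zone, with 3 in the interzone alone (21.4%, near the 18.2% of all genes) and CKM in the superficial zone alone (at least 2.38-fold). Among the 3 measured, ACTA1 was at -5.12 in the superficial zone and -1.17 in the interzone (15.5-fold lower), and the other two were within 4-fold. Of 15 macrophage and osteoclast genes 6 were measured (median -0.60), among them PTPRC, whose probes disagreed, and 8 were on neither array. Of 6 osteoblast genes 4 were seen in the superficial zone and 2 in the interzone. In the superficial zone the mineral-binding protein SPP1 was 118-fold higher (-0.56 against -7.44) and IBSP was seen alone (at least 143-fold), while osteocalcin (BGLAP) differed by -0.30 and ALPL was above background on neither array. Of 7 synovial lining genes 5 were seen in the superficial zone and 2 in the interzone, with VCAM1 27-fold higher and TNFAIP6, HBEGF and CD55 seen in the superficial zone alone, at least 10.1-fold, 56.7-fold and 30.3-fold. The part of these tissues in the differences above was not tested.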

How the data were processed

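Scanner files, 1 an array, were deposited by the authors and came from Agilent Feature Extraction, version 10.7.3.1, as per the file headers. Their processed signal, a linear intensity, was background-subtracted and detrended per the file headers, and the flags for spots well above background come from the deposited files. The deposited series table proved to be the same signal as a ratio to each array's median, and served as an alternative. Of 45220 spots 1417 controls and 3 to 80 outlier spots an array were left out, and 0 were saturated. Spots of 1 probe were averaged, giving 43603 probes. Probes were named from the files' gene numbers (13535), symbols (9031, and 765 symbols that the RefSeq table lacks), gene descriptions (504, in part through a hand-written map of 150 descriptions made after detection was seen), older symbols (188) or accessions (69), and 19511 stayed unnamed. Gene names are those of the array's design and can be old.

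Levels were computed as log2 with Python 3.11.15, numpy 2.4.6 and pandas 2.3.3; normexp (offset 50) used limma 3.58.1 in R 4.3.3. The probe with the highest mean over the 2 arrays stood for a gene. With 1 array a group no test was run. On an array simulated from the interzone array, with little noise and changes set past the threshold, all 200 changed genes were recovered with 0 false ones. This checks the computation only, since the setting fixed the outcome, and it says nothing about the calls between the real arrays. The comparison, gene lists and markers were chosen with earlier results of these data known, and the comparison with deeper tissue was added after the data were seen. Named were, per direction, the 15 largest measured differences with all probes one way, the 10 largest bounds, the 4 largest differences and 3 largest bounds of each list, all members of 5 lists, the 4 markers, and 10 genes nearest the median among the 100 brightest; the text gives part of these.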

Additional observations from a re-analysis of the deposited data

How the results depend on the processing

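No paired analysis was possible because each group has 1 array and its replicate number is only a name. For the same reason leaving out a replicate was not possible. With 430 genes higher and 480 lower by 4-fold, and bounds past 4-fold for 615 genes on the superficial side and 1807 on the interzone side, the counts moved by over 1.5 times under these alternatives. Scaling on the 75th percentile of all probes gave 1479 higher and 127 lower, with bounds for 1140 and 838. Quantile normalization gave interzone bounds for 748. Normexp background gave 198 higher and 287 lower, with bounds for 190 and 944. The wider filter on dim probes gave 745 and 1237, the narrower one 263 and 199. A 2-fold threshold gave 756 and 826, an 8-fold one 252 and 268. Scaling on the 50th percentile, on the 2 arrays alone or from the authors' table, and other choices of probe, stayed within 1.5 times. Of 275 list medians 35 changed sign, 11 of them under scaling on all probes; inflammation turned under normexp (-0.67). Of lists with a median of at least 1 in size, 6 medians changed sign: under scaling on all probes cell cycle (0.26), glycolysis (1.20) and oxidative phosphorylation (1.16), under normexp limb transcription factors (-0.44), under the wider filter limb transcription factors (-1.24) and tendon genes (-0.07). Relative to all genes, 15 of 25 lists kept their side under all 11 settings; those that did not included inflammation, matrix glycoproteins, metalloproteinases and ribosomal proteins. Of 46 named genes followed, 7 changed sign in at least 1 setting (ACTB, COL6A3, CTNNB1, EEF1A1, ERG, GAPDH and OGN). Apart from these constructions, the cause was not tested. Signal over background limits the superficial side, where a gene not above background has only a bound.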

Other observations

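Probes of 1 gene could disagree. PTPRC, the leukocyte common antigen gene, has 15 probes, of which 10 were well above background on the superficial array and 5 on the interzone array. Its reported probe, which starts at 4023, was bright on all 6 arrays, from 4.41 to 5.85, and differed by -1.19. The probes that start at 302, 303 and 304 were at -6.90, -6.83 and -6.78 in the superficial zone and not above background in the interzone. Those that start at 2087, 2117, 2710, 2711 and 2712 were above background on neither array. No level of PTPRC was therefore read on its own as a leukocyte measure. Its reported probe is nevertheless among the 6 measured macrophage and osteoclast genes and enters their median.

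ACAN showed a similar spread without a change of direction. Its probes that start at 5998 and 6470 differed by 3.75 and 6.21, and the one that starts at 1178 was at -7.36 in the superficial zone and not above background in the interzone. ITGB1, the common integrin beta chain, had 3 measured probes between -3.01 and 2.57.

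Adhesion genes went both ways. Of 39 on the array 19 were measured, 4 higher and 4 lower (against 16.3% and 18.2% of all measured genes). On the interzone array alone 9 were seen and on the superficial array alone 3. These are 23.1% and 7.69%, against 18.2% and 8.78% of all genes. CDH10 and the integrin chain ITGA1 were seen on the interzone array alone, with log2 bounds of -7.35 and -5.75. The integrin chains ITGB8 and ITGA10, the latter a collagen receptor of chondrocytes, were seen on the superficial array alone, at least 133-fold and 100-fold higher. The tetraspanin-like TM4SF1 was at 2.77 in the superficial zone and -2.30 in the interzone, 33.8-fold higher, with 5 probes between 5.08 and 5.47. The semaphorin SEMA3C was 19.6-fold higher (3 probes, 4.10 to 4.29), and PLXNB2, a semaphorin receptor, was seen on the interzone array alone, at least 351-fold lower in the superficial zone.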
